A study of Mus musculus with 4 samples.

Results

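Cytochrome P450 genes other than Cyp1a1, Cyp1b1 and Cyp51 were examined in back skin of K5-IKKbeta transgenic and wild type mice. Every gene of the array annotation whose symbol is Cyp followed by a family number was taken, which gave 70 genes of 18194 on the array. They were read by 91 probe sets, and 53 of the genes had 1 probe set. Genes were chosen by symbol. For those with several probe sets, the one to stand for the gene was selected on its mean over all 4 arrays. The rule itself uses no difference between genotypes, but the P450 genes were taken up with earlier results of these arrays known. Cyp1a2 of family 1 was not among the genes left out and is counted with the 70. Another 4 probe sets, which name more than 1 P450 gene, were left out.

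P450 enzymes are heme proteins that insert an oxygen atom into lipophilic molecules, with electrons passed on by a reductase and cytochrome b5 in the endoplasmic reticulum or by ferredoxin in mitochondria. Families are numbered by sequence similarity: many members of families 2 and 3 oxidise drugs and foreign compounds, family 4 hydroxylates fatty acids at the end of the chain, and the higher numbers hold enzymes with narrow tasks in bile acid, steroid, retinoid and vitamin D metabolism. In skin, P450 enzymes of keratinocytes activate vitamin D, break down retinoic acid and make lipids of the barrier.

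The study used 4 Affymetrix arrays of total skin RNA, 2 for each genotype, each with RNA pooled from 3 mice. All mice were males of 32 days on a C57BL6 X DBA2 background. The transgenic mice express IKKbeta, a kinase that activates NF-kB, from regulatory elements of keratin K5, which are active in basal cells of epidermis and follicle, and the controls were wild type. Values are RMA expression on the log2 scale, differences are K5-IKKbeta minus wild type, and a gene was called where limma's adjusted p over all tested genes was under 0.05. The number of arrays limits the precision, and the p-values measure the spread between pools, not between single mice. In bulk skin, fewer cells of a type and less RNA per cell cannot be told apart.

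Array medians were 6.91 to 6.96. Of 5 probe sets for Ikbkb, the gene of the transgene, 1454184_a_at measured 6.50 and 6.54 in wild type and 8.77 and 8.74 in K5-IKKbeta skin, 2 others were called higher and 2 were not called. Several cell type lists moved with genotype. Among all 13074 tested genes, 23.4% were higher and 10.6% lower, and no list was tested as a set. Of hair shaft and inner root sheath markers 21 of 21 tested were lower, with a mean log2 level of 12.83 and 12.88 in wild type against 8.77 and 9.22 in K5-IKKbeta skin. Of melanocyte markers 9 of 10 were lower (10.37 and 10.42 against 9.21 and 9.30). Higher were 12 of 13 macrophage markers (8.17 and 8.15 against 9.17 and 9.34), 7 of 11 sebaceous gland markers with 1 lower (10.51 and 10.58 against 11.46 and 11.44), 8 of 13 keratinocyte markers with 3 lower (12.22 and 12.24 against 12.56 and 12.33), 9 of 10 muscle markers (12.06 and 12.0045 against 13.06 and 12.89), 7 of 10 fibroblast markers (11.90 and 11.81 against 12.47 and 12.72), 7 of 10 endothelial markers (7.63 and 7.59 against 8.16 and 8.11) and 4 of 8 adipocyte markers (10.60 and 10.35 against 10.89 and 10.95). None of the lists other than that of hepatocytes had a marker under the floor on every array, which is taken here as the 25th percentile of that array. What part these shifts have in the P450 results was not tested. Of markers of hepatocytes, the cells best known for P450 enzymes, 0 of 3 tested were called by limma (1 lower at an unadjusted p under 0.05). Of the 10 measured, 2 lay below the floor on all 4 arrays, and 1 was called higher without the filter. The list's mean log2 level was 5.83 and 5.74 in wild type and 5.92 and 5.80 in K5-IKKbeta skin.

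Many of the P450 genes were near background in skin. On all 4 arrays, 23 of the 70 lay below the floor of 5.27 to 5.38, and 27 had a mean above the filter of 6.33, which is the 40th percentile, and were tested. Of those 27, 14 were higher and 3 were lower in K5-IKKbeta skin; the lower ones include Cyp11a1, whose probe sets disagree. That is 51.9% higher and 11.1% lower, where among all 13074 tested genes 23.4% were higher and 10.6% lower (33.9% called). Without the filter, 19 of all 70 genes were higher and 3 lower (31.4% called), where 24% of all 18194 genes were called, 16.3% higher and 7.71% lower. The median difference of all 70 was 0.00, and that of all 18194 genes 0.03. Tested genes with 1 group mean under the filter were Cyp11a1, Cyp27b1 and Cyp2j11. The groups' arrays did not overlap for 41 of the 70 genes, where 61.6% of all genes did not overlap.

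**Figure D1:**
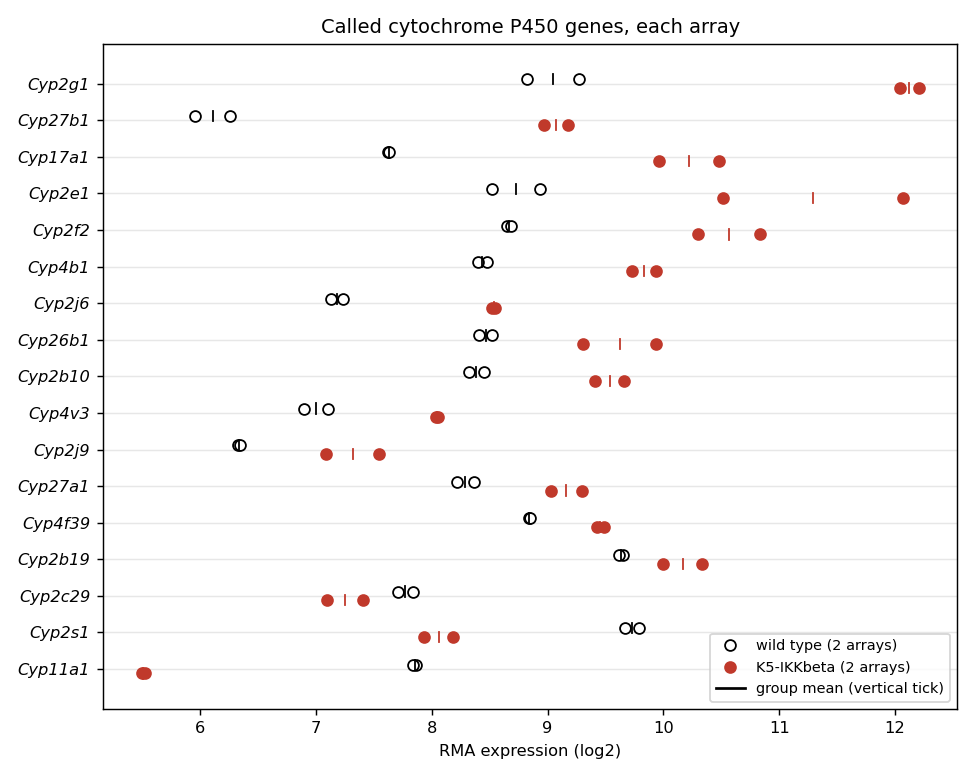
RMA expression (log2) on each array for the 17 called P450 genes, sorted by difference; open points are wild type, filled points K5-IKKbeta, and ticks are group means of 2 arrays. The groups overlap for none of the 17, which were chosen by their limma call, and 61.6% of all genes do not overlap. The gap between the K5-IKKbeta arrays is widest for Cyp2e1 (12.07 and 10.52).

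The largest rise was that of Cyp2g1, a steroid-metabolising enzyme best known from olfactory mucosa. It measured 8.82 and 9.27 in wild type and 12.04 and 12.20 in K5-IKKbeta skin, an 8.45-fold rise (log2 difference 3.08 with SE 0.16, adjusted p = 0.000109). Cyp27b1, the enzyme that makes the hormone form of vitamin D, measured 5.96 and 6.26 against 9.18 and 8.97, a 7.82-fold rise (2.97 with SE 0.14, adjusted p = 7.14e-05). Its wild type arrays lay above the floor but under the filter, so this fold is rough. Cyp17a1, a steroid hydroxylase and lyase on the way to androgens, measured 7.62 and 7.63 against 9.96 and 10.48, a 6.03-fold rise (adjusted p = 0.000242).

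Cyp2e1, which oxidises ethanol, ketones and small solvents, was the gene in which the transgenic pools differed most. It measured 8.94 and 8.52 in wild type and 12.07 and 10.52 in K5-IKKbeta skin, a 5.93-fold rise (log2 difference 2.57 with SE 0.47, adjusted p = 0.00897). Both transgenic pools lay above both wild type pools. The log2 difference was 1.79 without K5-IKKbeta 1 and 3.34 without K5-IKKbeta 2, and Cyp2e1 was not called when wild type 2 was left out (2.36, adjusted p = 0.0593). Cyp2f2, which activates naphthalene in the airway, measured 8.65 and 8.68 against 10.84 and 10.30, a 3.74-fold rise (adjusted p = 0.000765). In 10 of the 14 genes that rose, K5-IKKbeta pool 1 lay above pool 2. It also lay above pool 2 in 3 of the 3 genes that fell, and the pools' array medians were 6.96 and 6.95.

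Genes of the Cyp2b and Cyp2j subfamilies rose by smaller amounts. Cyp2b10, the classic phenobarbital-induced P450 of liver, measured 8.45 and 8.32 against 9.66 and 9.41, a 2.22-fold rise (adjusted p = 0.00118). Cyp2b19, an arachidonic acid epoxygenase of differentiating keratinocytes, measured 9.65 and 9.61 against 10.34 and 9.998, a 1.45-fold rise (adjusted p = 0.0259). Cyp2b19 was no longer called when either wild type array was left out (adjusted p = 0.115 for the first and 0.133 for the second), after a second quantile normalization (0.0585) and after one without hair genes (0.0637). Cyp2b13 and Cyp2b9, at 5.18 to 5.63 in all arrays, were not tested. Near-identical Cyp2b copies can share probes, so the value of any one of them is uncertain, as in the other multigene subfamilies.

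Cyp2j enzymes turn arachidonic acid into epoxides. Cyp2j6 measured 7.13 and 7.23 in wild type and 8.52 and 8.55 in K5-IKKbeta skin, a 2.55-fold rise (adjusted p = 0.000284). Cyp2j9 measured 6.33 and 6.34 against 7.54 and 7.09, a 1.97-fold rise (adjusted p = 0.00579). Cyp2j13, with 4.65 and 4.63 against 5.69 and 5.43, was not tested; taken against the floor it was at least 1.16-fold higher (adjusted p = 0.00279 without the filter). Cyp2j11 measured 6.23 and 6.32 against 6.49 and 6.31 (log2 difference 0.13, 95% interval -0.14 to 0.39, adjusted p = 0.413). Cyp2j5 lay below the floor on all arrays.

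The falls were fewer. Cyp2s1, a P450 of epithelia that include skin, measured 9.79 and 9.67 in wild type and 8.18 and 7.94 in K5-IKKbeta skin, a 3.18-fold fall (log2 difference -1.67 with SE 0.12, adjusted p = 0.000305). Cyp2c29, an enzyme of arachidonic acid and drug oxidation, measured 7.71 and 7.84 against 7.40 and 7.09, a 1.44-fold fall (adjusted p = 0.0271). Cyp2c29 was no longer called when the first or second wild type array (adjusted p = 0.0913 and 0.155) or the second K5-IKKbeta array (0.0527) was left out, or with the replicate number as a block (0.052). The other Cyp2c genes had log2 differences of -0.35 to 0.10. Of these, Cyp2c50 (0.07, 95% interval -0.21 to 0.34) and Cyp2c70 (-0.10, interval -0.42 to 0.22) were tested and not called.

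Cyp11a1, which cuts the side chain of cholesterol as the first step of steroid synthesis, gave opposite readings from its probe sets. The brightest, 1439947_at, measured 7.87 and 7.84 in wild type and 5.52 and 5.49 in K5-IKKbeta skin, a 5.09-fold fall (adjusted p = 3.9e-05). Probe set 1448804_at measured 6.38 and 6.04 against 6.74 and 6.85 and was called higher (log2 difference 0.58, adjusted p = 0.0388 over all probe sets). The remaining one, 1457604_x_at, lay around the floor, at 5.17 to 5.41, and the mean log2 difference of all 3 was -0.62. The direction of Cyp11a1 as a gene is therefore not settled by these arrays; where on the transcript each probe set lies was not analysed here.

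**Figure D2:**
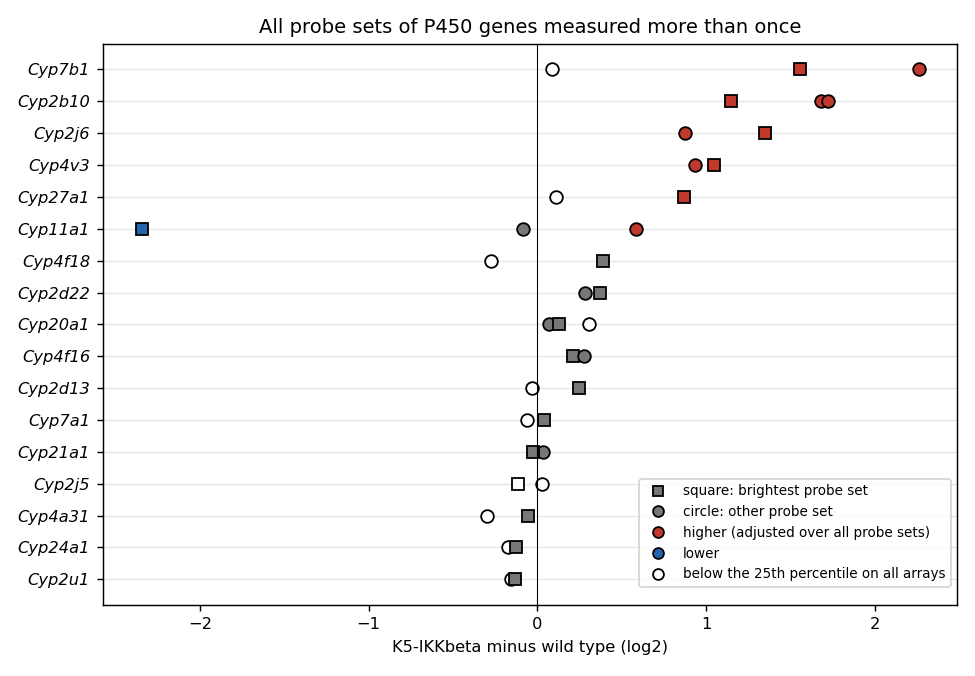
Difference between K5-IKKbeta and wild type (log2) for each probe set of the 17 P450 genes with more than 1, with the brightest as squares and open symbols for probe sets below the 25th percentile on all 4 arrays. Cyp2b10, Cyp2j6, Cyp4v3 and Cyp7b1 have several probe sets called higher, and only Cyp11a1 has calls in both directions.

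Other probe sets give a partly separate reading of the same RNA. Over all probe sets, 16.3% were called. Of the 17 P450 genes with several, 4 had at least 2 called probe sets in 1 direction, 1 had a single call and 11 had none, beside Cyp11a1. For Cyp2b10 the brightest probe set gave the smallest difference, 1.15, and the others gave 1.69 and 1.72, both from sets whose ending marks shared sequence. For Cyp2j6 the log2 differences were 1.35 and 0.87, and for Cyp4v3 1.05 and 0.93. The one Cyp27a1 probe set that was not called, 1457665_x_at, lay below the floor on all arrays.

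Family 4 held 13 genes, of which 5 were tested, 3 were higher and 0 lower by limma, with 0 lower also at an unadjusted p under 0.05. Among all tested genes 23.4% were higher and 10.6% lower. Without the filter 23.1% of the 13 were called, near the 24% of all genes. Cyp4b1, which hydroxylates fatty acids and activates some protoxins, measured 8.47 and 8.40 in wild type and 9.94 and 9.73 in K5-IKKbeta skin, a 2.64-fold rise (adjusted p = 0.000441). Cyp4v3, a fatty acid hydroxylase, measured 7.10 and 6.90 against 8.04 and 8.06, a 2.07-fold rise (adjusted p = 0.0011). Cyp4f39, which hydroxylates the very long fatty acids of epidermal ceramides, measured 8.83 and 8.85 against 9.48 and 9.42, a 1.53-fold rise (adjusted p = 0.0043). Cyp4f13 (log2 difference 0.24, 95% interval -0.03 to 0.52) and Cyp4f16 (0.21, interval -0.05 to 0.47) were not called. The Cyp4a genes, fatty acid hydroxylases controlled by Ppara in liver, stayed between 4.10 and 5.47 in all arrays and were not tested.

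**Figure D3:**
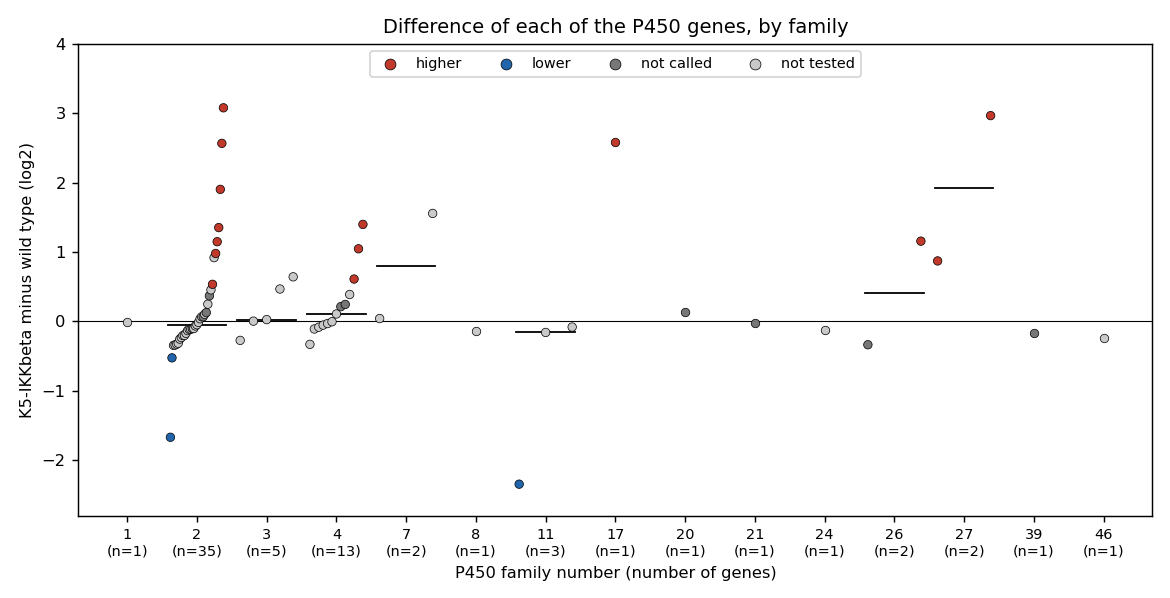
Difference between K5-IKKbeta and wild type (log2) for each of the 70 P450 genes by family number, coloured by limma call, with the median as a line where a family has more than 1 gene. Families 2, 4, 17, 26 and 27 hold the genes called higher, and families 2 and 11 those called lower.

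Of the retinoic acid hydroxylases 2 were measured. Cyp26b1 measured 8.41 and 8.52 in wild type and 9.93 and 9.31 in K5-IKKbeta skin, a 2.23-fold rise (adjusted p = 0.00765, and 0.0537 without wild type 1). Cyp26a1 measured 7.37 and 7.03 against 6.92 and 6.81 and was not called (log2 difference -0.34, 95% interval -0.68 to 0.00, adjusted p = 0.115). The difference between these enzymes was not tested.

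Vitamin D metabolism was represented by 4 P450 genes. Beside the rise of Cyp27b1, Cyp24a1, which inactivates the hormone, measured 5.91 and 5.84 against 5.86 and 5.62 and was not tested. Cyp2r1, which makes the precursor that Cyp27b1 uses, lay below the floor on all arrays. Cyp27a1, a mitochondrial sterol hydroxylase that also acts on vitamin D, measured 8.36 and 8.22 against 9.29 and 9.03, a 1.83-fold rise (adjusted p = 0.00354). Vdr, the receptor of the hormone, was not called (log2 difference -0.34, adjusted p = 0.0854).

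Among the sterol and bile acid enzymes, Cyp7b1 had the largest difference of all P450 genes left untested by the filter. This oxysterol hydroxylase measured 5.43 and 5.25 in wild type and 7.03 and 6.77 in K5-IKKbeta skin (log2 difference 1.56, adjusted p = 0.000537 without the filter). A second probe set, 1421074_at, measured 4.92 and 4.48 against 6.99 and 6.93. Cyp39a1, another oxysterol hydroxylase, was tested and not called (log2 difference -0.17, 95% interval -0.40 to 0.07). Cyp7a1 and Cyp8b1, enzymes of bile acid synthesis in liver, and Cyp46a1, a cholesterol hydroxylase of brain, had log2 differences of 0.04, -0.14 and -0.24 and were not tested.

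Cyp21a1, which makes precursors of cortisol and aldosterone, measured 7.39 and 7.26 in wild type against 7.30 and 7.29 in K5-IKKbeta skin and was not called (log2 difference -0.03, 95% interval -0.27 to 0.21). Cyp11b1 and Cyp11b2, of the adrenal cortex, lay below the floor on all arrays. Cyp20a1, a P450 of unknown substrate, measured 8.89 and 9.13 against 8.86 and 9.42 (adjusted p = 0.659).

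The drug-metabolising subfamilies Cyp3a and Cyp2d were low. Of the 5 Cyp3a genes none was tested and 4 lay below the floor on all arrays. Cyp3a13 measured 5.24 and 5.30 against 5.80 and 6.02, at least 1.48-fold higher against the floor (adjusted p = 0.0101 without the filter). Of 8 Cyp2d genes only Cyp2d22 was tested; it measured 6.38 and 6.57 against 7.10 and 6.58 and was not called (adjusted p = 0.179), but passed without K5-IKKbeta 2 (log2 difference 0.63, adjusted p = 0.00728). Without the filter, 5 untested P450 genes passed: Cyp7b1, Cyp2j13 and Cyp3a13, and, with all arrays below the floor, Cyp2r1 and Cyp3a25. The other 38 untested genes, Cyp1a2 among them, had log2 differences of -0.35 to 0.39.

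P450 genes lie in clusters of related copies, and calls are given here in chromosomal order; likeness between neighbours was not tested. In the Cyp2 cluster of chromosome 7 the measured genes lie in the order Cyp2s1, Cyp2b10, Cyp2b13, Cyp2b9, Cyp2b19, Cyp2g1, Cyp2a12 and Cyp2f2. Of the 5 tested, Cyp2s1 at the edge fell while its neighbour Cyp2b10, with 0 protein-coding genes between them, Cyp2b19, Cyp2g1 and Cyp2f2 rose. On chromosome 19, 3 of the 10 Cyp2c genes of 1 cluster were tested, and Cyp2c29 fell while Cyp2c50 and Cyp2c70 were not called. On chromosome 4 the adjacent Cyp2j6 and Cyp2j9 both rose, 2 of 3 tested in a cluster of 5 Cyp2j genes. Elsewhere on chromosome 4 Cyp4b1 rose beside 4 genes of the Cyp4a and Cyp4x subfamilies that were not tested. Gene order is that of the RefSeq table of GRCm38.p6.

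**Figure D4:**
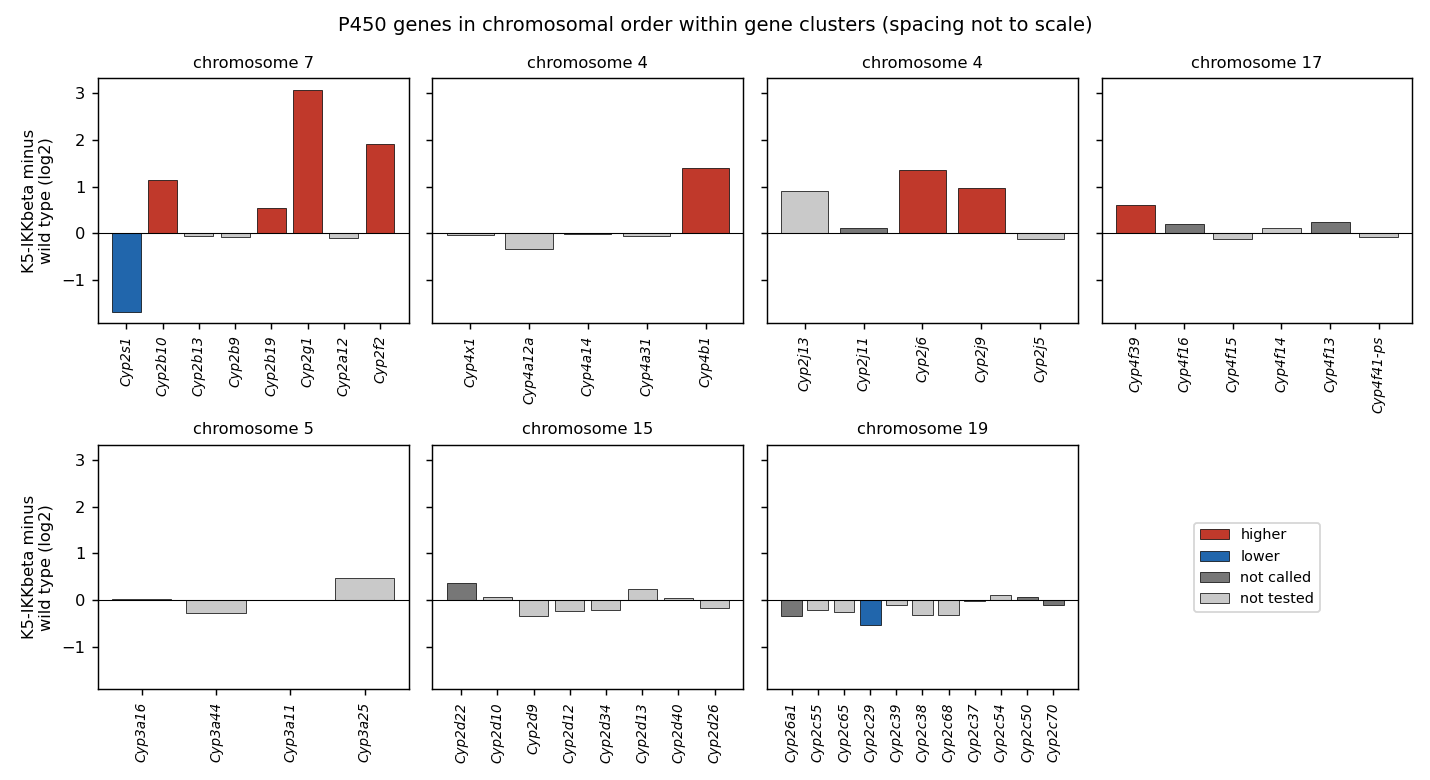
Difference between K5-IKKbeta and wild type (log2) of P450 genes in chromosomal order in the 7 clusters with at least 4 of them, coloured by limma call; spacing is not to scale, and the chromosome 19 panel starts with Cyp26a1. The chromosome 7 cluster holds both a fall (Cyp2s1, -1.67) and the largest rise (Cyp2g1, 3.08).

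Because Cyp2b10 and Cyp2s1 are neighbours with opposite calls, the 250 bases before the start site are shown for that pair and for the 3 risen genes with the largest differences that have a promoter in the RefSeq table (GRCm38.p6). That promoter table holds windows for 49 of the 70 genes, with 56 start sites, and for 15 of the 17 called genes; Cyp2g1 and Cyp17a1 are named only. The windows are chr10:127047996-127048245 on the plus strand for Cyp27b1, chr7:140763569-140763818 (plus) for Cyp2e1, chr7:27119705-27119954 (plus) for Cyp2f2, chr7:25897408-25897657 (plus) for Cyp2b10 and chr7:25816526-25816775 (minus) for Cyp2s1. Capitals mark matches to AGGTCA, the half-site of nuclear receptors, or to TATAAA, the TATA box, searched on both strands with overlaps allowed.
Cyp27b1: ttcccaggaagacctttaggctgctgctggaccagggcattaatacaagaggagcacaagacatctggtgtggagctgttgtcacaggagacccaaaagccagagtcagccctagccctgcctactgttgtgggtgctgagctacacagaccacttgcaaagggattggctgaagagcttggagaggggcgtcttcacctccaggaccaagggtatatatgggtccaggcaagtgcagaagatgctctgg
Cyp2e1: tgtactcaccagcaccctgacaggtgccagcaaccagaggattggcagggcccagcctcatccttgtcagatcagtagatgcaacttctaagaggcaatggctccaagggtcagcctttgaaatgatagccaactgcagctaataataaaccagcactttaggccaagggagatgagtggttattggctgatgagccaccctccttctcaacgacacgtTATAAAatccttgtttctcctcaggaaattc
Cyp2f2: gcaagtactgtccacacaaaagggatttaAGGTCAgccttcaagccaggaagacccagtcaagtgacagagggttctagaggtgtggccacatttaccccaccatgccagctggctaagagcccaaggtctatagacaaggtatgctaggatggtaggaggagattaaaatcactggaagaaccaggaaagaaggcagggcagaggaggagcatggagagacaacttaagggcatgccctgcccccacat
Cyp2b10: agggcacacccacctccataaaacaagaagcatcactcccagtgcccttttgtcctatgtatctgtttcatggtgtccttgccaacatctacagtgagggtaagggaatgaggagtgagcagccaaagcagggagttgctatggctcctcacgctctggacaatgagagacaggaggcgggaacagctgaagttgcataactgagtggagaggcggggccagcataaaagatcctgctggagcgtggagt
Cyp2s1: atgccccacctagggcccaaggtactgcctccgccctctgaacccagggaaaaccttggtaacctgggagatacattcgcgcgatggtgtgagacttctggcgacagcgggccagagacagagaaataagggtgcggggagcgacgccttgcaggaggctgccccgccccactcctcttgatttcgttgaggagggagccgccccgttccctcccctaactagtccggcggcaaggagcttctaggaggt
AGGTCA was found in 13 of the 56 windows of P450 genes (23.2%, against 14% of all 32851 windows) and TATAAA in 18 (32.1%, against 12.4%). For genes called higher each was in 2 of 12 windows (16.7%). For genes called lower AGGTCA was in 2 of 4 windows (50%) and TATAAA in 1 of 4 (25%). These 4 windows come from 3 genes, so they are not separate genes, and the shares were not tested. Of the windows shown, that of Cyp2f2 holds AGGTCA and that of Cyp2e1 holds TATAAA. The other windows hold neither, which says only that these letters are not in them.

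Genes of pathways in which P450 enzymes take part were compared next. Not all of them act with a P450 enzyme, and Ptgis and Tbxas1 are P450 enzymes under other symbols. Of 88 measured genes in 6 lists, 74 were tested, and 33 were higher and 7 lower (54.1% called, where 33.9% of all tested genes were). The median log2 difference of the 88 was 0.31. Tested with 1 group mean under the filter, and so only through the group where they are high, were Alox15, Ptgis and Rarb. The count of higher partner genes was 19 without wild type 1 and 18 without wild type 2, where the share of all tested genes called higher fell from 23.4% to 12% and 12.1%. Without the filter 34 of the 88 partner genes were higher and 8 lower (47.7% called). The matching share of all 18194 genes was 24% called, with 16.3% higher and 7.71% lower. Por and Fdxr, the main reductases, were not analysed here.

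Electron donors had 7 of 9 genes higher and 0 lower by limma, with 1 lower at an unadjusted p under 0.05. Of all tested genes 23.4% were higher and 10.6% lower. Cyb5r3, which reduces cytochrome b5, measured 11.46 and 11.24 in wild type and 12.38 and 12.40 in K5-IKKbeta skin, a 2.05-fold rise (adjusted p = 0.0012). Pgrmc1 and Pgrmc2, heme-binding proteins that associate with P450 enzymes, rose 1.90-fold and 1.75-fold, and cytochrome b5 itself (Cyb5a) rose 1.66-fold. Cyb5r4, the brightest not called, had a log2 difference of 0.05 (adjusted p = 0.74).

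In heme metabolism 5 of 14 genes were higher and 1 was lower. That is 42.9% called, where 33.9% of all tested genes were, and 7.14% lower, where 10.6% of all were. Urod rose 1.88-fold, Alas2 and Alas1, whose products start heme synthesis, rose 1.58-fold and 1.52-fold, and Hmox1, which breaks heme down, fell 2.32-fold (adjusted p = 0.000572). Alad was not called (log2 difference 0.46, adjusted p = 0.195).

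Of 17 tested nuclear receptors 6 were higher and 1 lower (41.2% called, where 33.9% of all tested genes were). Pparg, a lipid-activated receptor of fat and sebaceous cells, rose 3.60-fold, Rora 2.34-fold, and Ppara 2.10-fold, while Rarb, a retinoic acid receptor, fell 1.63-fold. Rarg, the main retinoic acid receptor of epidermis, was not called (log2 difference 0.32, adjusted p = 0.0746). Nr1i2 and Nr1i3, the receptors through which drugs induce Cyp3a and Cyp2b genes in liver, were not tested. They measured 4.78 to 5.42, with at most 1 array above the floor.

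Among epoxide hydrolases and arachidonate and esterase enzymes 5 of 12 tested were higher and 1 lower (50% called, where 33.9% of all tested genes were). Ces1d, a carboxylesterase, rose 3.73-fold, the lipoxygenase genes Alox15, Alox12b and Alox5 rose 1.91-fold, 1.78-fold and 1.57-fold, and Alox12 fell 1.56-fold. The epoxide hydrolases, which act on P450 products, were not called: Ephx1 had a log2 difference of 0.30, Ephx2 of 0.45 and Ephx3 of -0.09.

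Steroid and sterol enzymes had 6 of 11 tested genes higher and 0 lower by limma, with 1 lower at an unadjusted p under 0.05. The shares of all tested genes were 23.4% higher and 10.6% lower, and those of all genes without the filter 16.3% and 7.71%. Without the filter 7 of all 15 measured were higher and 1 lower: Hsd3b1, a steroid dehydrogenase, measured 5.72 and 5.46 in wild type and 5.08 and 4.74 in K5-IKKbeta skin, at least 1.21-fold lower against the floor (limma adjusted p = 0.023). Hsd17b2, which inactivates sex steroids, rose 2.24-fold, and Tspo, a mitochondrial protein linked to cholesterol transport, rose 2.10-fold. Hsd17b11 and Hsd11b2, further steroid dehydrogenases, rose 1.93-fold and 1.62-fold. Sult2b1, a sulfotransferase of cholesterol in epidermis, was not called (log2 difference -0.38, adjusted p = 0.0974). Star, which brings cholesterol to Cyp11a1, was not called (log2 difference -0.20, adjusted p = 0.305).

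Retinoid and vitamin D genes moved both ways, with 4 of 11 tested higher and 4 lower. Each is 36.4%, where 23.4% of all tested genes were higher and 10.6% lower. Aldh1a3, which makes retinoic acid, fell 4.97-fold, the retinol receptor Stra6 4.24-fold, Lrat, which stores retinol as esters, 2.77-fold, and Bco1, which cleaves carotene, 2.14-fold. In the other direction Aldh1a1 rose 1.78-fold. Crabp2, a retinoic acid carrier, was not called (log2 difference 0.05, adjusted p = 0.825). These values stand beside the rise of Cyp26b1 and the lack of a call for Cyp26a1.

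**Figure D5:**
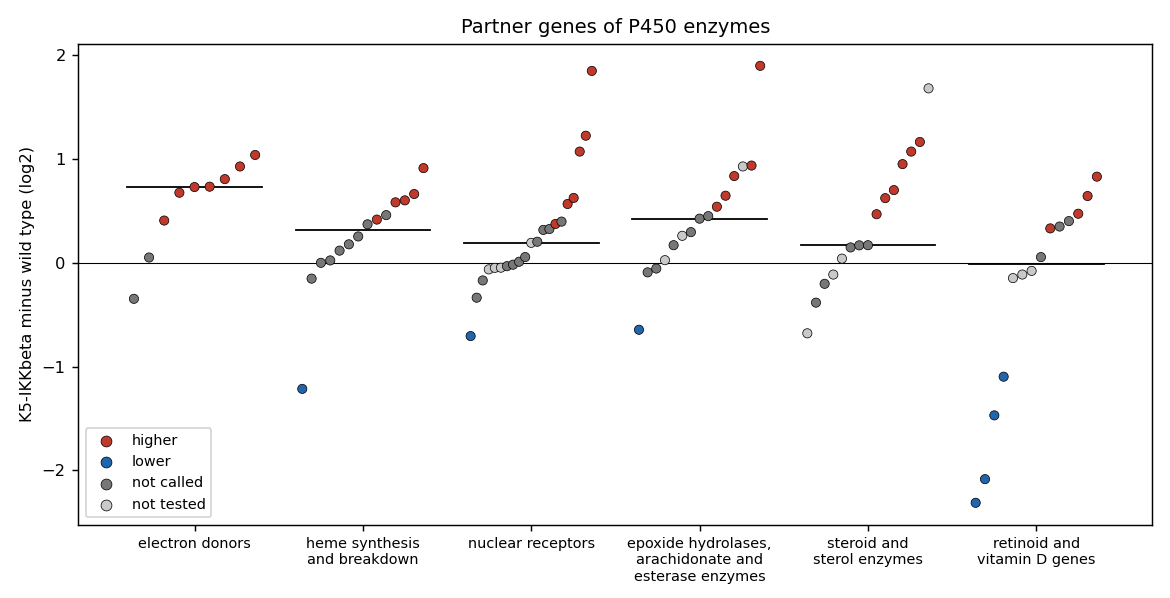
Difference between K5-IKKbeta and wild type (log2) of each measured gene in the 6 lists of P450 partner genes, coloured by limma call, with list medians as lines. Electron donors have the highest median (0.73), and the retinoid and vitamin D list spans from -2.31 (Aldh1a3) to 0.83 (Aldh1a1).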

How the data were processed

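Deposited values are RMA expression values per probe set, made by the authors; RMA is named in the submitters' processing notes without a version, and the sources used here give no software, build or annotation. The log base is not stated; deposited values of 2.65 to 14.7 are the range of log2 values and were used as log2. Probe sets with 1 symbol in the platform annotation named genes; all 70 P450 symbols matched the RefSeq table (GRCm38.p6) by identifier. The fit used limma 3.58.1 in R 4.3.3 (group as only term, eBayes, two-sided, Benjamini-Hochberg over 13074 genes above the 40th percentile, threshold 0.05). It was run on simulated data as a check of the code. Those data had variances drawn from the fit's own prior and far fewer changed genes than were called here. The check therefore does not measure error rates in these arrays. No detection calls were used; the floor is each array's 25th percentile. Folds are 2 to the power of the log2 difference. The P450 genes, the lists and the tests were chosen with earlier results of these data known. Named genes are all called P450 genes, the 10 brightest tested but not called, untested ones with a log2 difference of at least 1, and up to 4 called genes and the brightest uncalled one per list; others were named after their values were seen. Alternatives varied filter, probe set choice, normalization, test, block and arrays. RMA compresses large changes.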

Additional observations from a re-analysis of the deposited data

How the results depend on the processing

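The number of P450 genes called higher was 12 to 19 over all settings tried and that of genes called lower 1 to 3. No log2 difference of a named P450 gene changed sign with a call in the settings where the gene was tested. For Cyp11a1 this does not cover the choice of probe set, since its value came from 1439947_at wherever it was tested. Its probe set 1448804_at was called in the opposite direction (log2 difference 0.58, limma adjusted p = 0.0388 over all probe sets). With only genes above the 60th percentile tested, 1 P450 gene and 3 partner genes were lower, since fewer genes were tested. Leaving out 1 array at a time gave 12 to 15 P450 genes higher, 2 to 3 lower, 18 to 38 partner genes higher and 6 to 9 lower. Replicate numbers are shared between genotypes, but no label says that they pair the samples. Same-numbered deviations correlated at 0.25 over the tested genes, with 2 pairs. With the replicate number as a block, 14 P450 genes were higher and 2 lower, and 37 partner genes were higher and 8 lower. A second quantile normalization moved the whole-array calls from 3056 higher and 1380 lower to 2580 and 1780. With hair genes left out before it, chosen after seeing the data, they were 2494 and 1822; 13 P450 genes were then higher and 3 lower. Of 365 values of single P450 genes under another setting, 353 kept their call, 10 lost it and 2 gained one. A called gene that did not pass the filter under a setting is not among these values and is not counted as lost. Examples are Cyp11a1 and Cyp27a1 with the mean of all probe sets. Cyp7b1, among the 2 that gained a call, was not tested in the main fit. Without scanner files, signal over background was not measured here.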

Other observations

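Further genes of oxysterol metabolism were looked at after their values were known. Ch25h, which makes the hydroxycholesterol that Cyp7b1 converts into an attractant of immune cells, measured 5.37 and 5.50 in wild type and 7.23 and 7.001 in K5-IKKbeta skin (log2 difference 1.68, limma adjusted p = 0.000292 without the filter). Hsd3b7, which acts on the product of Cyp7b1, measured 8.60 and 8.52 against 9.30 and 9.07, a 1.54-fold rise (adjusted p = 0.00881). Ch25h and Cyp7b1 were not tested under the filter, their wild type values lay around the floor, and no test was made of these genes as a group.

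A probe set that names both Cyp4f37 and Cyp4f16 measured 6.87 and 7.05 in wild type and 7.40 and 7.84 in K5-IKKbeta skin (log2 difference 0.66, limma adjusted p = 0.0441 over all probe sets), while the 2 probe sets of Cyp4f16 alone had log2 differences of 0.21 and 0.28 and were not called.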
